A study of Caenorhabditis elegans with 8 samples.

Results

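The genes described are 10 components of the oxygen-sensing (hypoxia) pathway of Caenorhabditis elegans, chosen by gene name from a list. They comprise 5 regulators (hif-1, egl-9, vhl-1, rhy-1 and cysl-1) and 5 genes listed as targets (cysl-2, phy-2, F22B5.4, cah-4 and smd-1). All 10 were found once among the 46904 genes of the deposited table, and all 10 were among the 10932 genes with enough counts to be tested. RNA came from pools of whole worms of strain CL2006, which expresses amyloid beta peptide and whose genotype field reads WT. In this strain the peptide is driven in body wall muscle by the unc-54 promoter. The worms fed for 2 generations at 20 °C on HT115(DE3) bacteria carrying either an empty RNAi vector (EV, 4 libraries) or a cpr-6 RNAi plasmid (cpr-6 RNAi, 4 libraries), with daily washing to clear progeny until harvest on day 6 of adulthood. cpr-6 encodes a cathepsin B-like cysteine protease, and every group carries the same transgene, so no worms without amyloid beta enter the comparison. Libraries were made with CEL-Seq2, which reads the 3′ ends of polyadenylated transcripts.

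HIF-1 is a transcription factor whose amount is set mainly by protein breakdown. When oxygen is present, the prolyl hydroxylase EGL-9 marks HIF-1, the ubiquitin ligase adaptor VHL-1 recognises the mark, and HIF-1 is degraded. In low oxygen, or when hydrogen sulfide lets CYSL-1 bind and block EGL-9, HIF-1 persists and switches on its targets, among them egl-9 and rhy-1, which restrain it in turn. Transcript levels of targets therefore report on the pathway in a way that the transcript level of hif-1 need not.

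The libraries held 8184412 to 12506320 counts and 15591 to 16414 detected genes. Levels are given as CPM, counts scaled to library size with the TMM method, and are compared between libraries for one gene at a time. The targeted gene was low in every treated library, at 758 ± 22.5 CPM in EV and 81.7 ± 14.7 CPM in cpr-6 RNAi (SD, n = 4 each), and it was the only gene past the threshold of the test (edgeR, adjusted p = 2.00e-10). Replicate 4 of cpr-6 RNAi stood apart. Its score on the first principal component was 40.7 against -19.7 to 5.16 in the other libraries, and 2.14% of its counts came from the mitochondrial genome against 0.805% to 1.16%. Its summed markers of body wall muscle (6 genes) were at 6090 CPM against 3190 to 5520 elsewhere, of hypodermis (6 genes) at 1090 against 615 to 882, of neurons (7 genes) at 1340 against 1130 to 1320, and of oocytes and germline (7 genes) at 2780 against 3600 to 4150. Markers of intestine (19100 to 31000 CPM), sperm (2.98 to 10.3 CPM) and embryos (12.2 to 19.7 CPM) had their extremes in other libraries, and of all marker genes only the embryonic med-2 was at 0 in every library. In pools of whole worms, fewer cells of a type and less RNA per cell cannot be told apart. The muscle sum includes unc-54, whose promoter drives the transgene, and whether reads from the transgene enter that sum was not tested.

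No member passed the test under cpr-6 RNAi. The edgeR adjusted p over all genes was 0.997 for each of the 10, where 0.00915% of the tested genes passed. DESeq2 called 0 members, against 0.0541% of the genes to which it gave an adjusted p, and it gave F22B5.4 none. All 10 log2 fold changes were above 0, from 0.06 for egl-9 to 0.47 for smd-1, with a median of 0.15. Over all tested genes 50.2% lay above 0, and the median was 0.000581. The counts of members include F22B5.4, which reached the count cut-off for testing in only 1 EV and 3 cpr-6 RNAi libraries. With a stricter cut-off, which left F22B5.4 out, all 9 members tested lay above 0, with a median of 0.14. The count of 10 depended on one library. Without cpr-6 RNAi replicate 4, 6 of 10 members lay above 0 and their median was 0.05, where 49.4% of all tested genes lay above 0. The marker sums and mitochondrial share given above moved with this library, and their part in the members' levels was not tested. The groups did not overlap for 0 of the 10 members, against 2.52% of tested genes, and 1 member, smd-1, had an unadjusted p under 0.05 in edgeR, against 3.85%. Both within replicates 1 and 2 and within replicates 3 and 4, 9 of 10 members were higher in the treated libraries, against 25.8% of tested genes. The exception was rhy-1, and the second of these comparisons includes the library named above. The 95% interval of the fold change (limma voom) lay within 2-fold in either direction for 9 members, all but F22B5.4, as it did for 88.8% of tested genes.

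**Figure D1:**
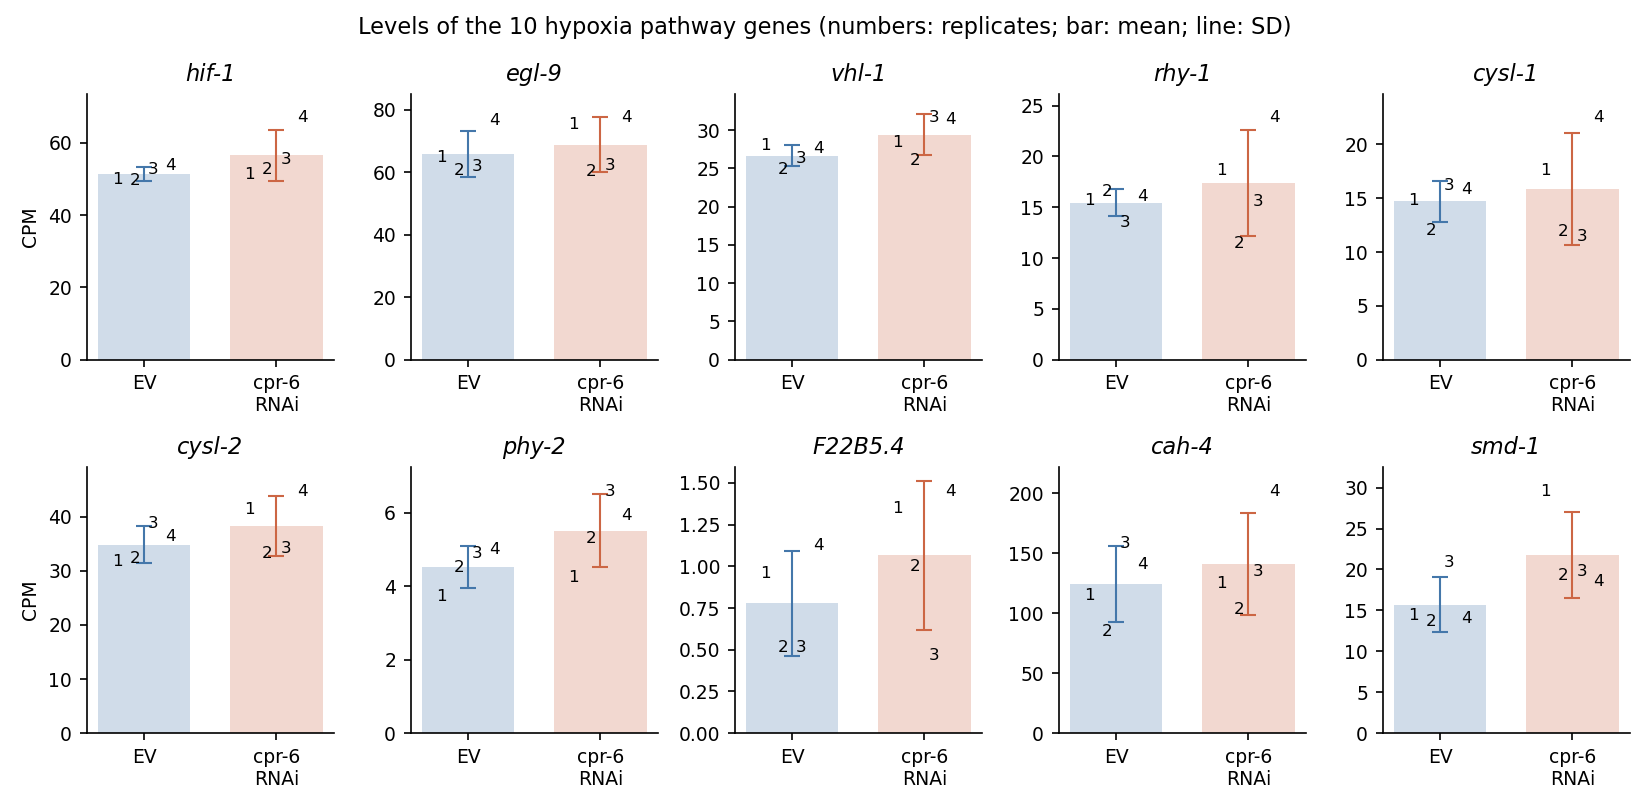
CPM of the 10 members in each library; digits are replicate numbers, bars are group means (n = 4) and lines are the SD. The groups overlap in every panel, and replicate 4 of cpr-6 RNAi is the highest library in 7 of the 10 panels.

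Among the regulators, hif-1 itself (WBGene00001851; WBcel235 chromosome V, 20780413 to 20785259, plus strand, 6 annotated transcripts) stood at 50.0, 49.6, 52.5 and 53.7 CPM in EV replicates 1 to 4. In cpr-6 RNAi it stood at 51.3, 52.7, 55.3 and 67.0 CPM. The EV libraries lay close together, and the one clearly higher value was that of cpr-6 RNAi replicate 4. The means (± SD, n = 4) were 51.5 ± 2.01 and 56.6 ± 7.14 CPM, and the log2 fold change was 0.13 ± 0.102 (SE; edgeR adjusted p = 0.997). Its 95% interval in limma voom ran from -0.09 to 0.34, with an upper end of 1.27-fold. Without cpr-6 RNAi replicate 4 the log2 fold change was 0.04.

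egl-9 (WBGene00001178; chromosome V, 10468411 to 10476952, plus strand, 7 transcripts) encodes the hydroxylase that marks HIF-1. It measured 64.7, 60.7, 61.8 and 76.4 CPM in EV and 75.3, 60.3, 62.2 and 77.5 CPM in cpr-6 RNAi. Each group held libraries near 61 CPM and at least one above 75 CPM, and the ranges nearly coincided. For egl-9 the log2 fold change was 0.06 ± 0.111 (SE), with a 95% interval of -0.19 to 0.30, and -0.00346 without cpr-6 RNAi replicate 4. The 3 small noncoding genes annotated inside egl-9 held 0 counts.

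vhl-1 (WBGene00006922; chromosome X, 11307360 to 11308400, plus strand, 1 transcript) encodes the adaptor that recognises hydroxylated HIF-1. Its values were 28.0, 24.8, 26.3 and 27.5 CPM in EV and 28.4, 26.0, 31.6 and 31.4 CPM in cpr-6 RNAi. In 3 of the 4 treated libraries the level was above that of every EV library, and replicate 2 was the exception. The log2 fold change was 0.14 ± 0.108 (SE), with a 95% interval of -0.10 to 0.36 and an exact two-sided permutation p of 0.143 (n = 4 each, smallest possible 0.0286). It was the regulator that changed least when cpr-6 RNAi replicate 4 was left out, with a log2 fold change of 0.10.

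rhy-1 and cysl-1 have opposite effects on HIF-1. rhy-1 (WBGene00012324; chromosome II, 9161379 to 9163448, plus strand, 1 transcript) encodes a predicted membrane acyltransferase that holds HIF-1 down and is itself switched on by HIF-1. It measured 15.7, 16.5, 13.5 and 16.03 CPM in EV and 18.6, 11.4, 15.6 and 23.8 CPM in cpr-6 RNAi. The treated libraries included both the lowest and the highest of the 8 values. The log2 fold change of 0.16 ± 0.182 (SE; 95% interval -0.29 to 0.51) became -0.0231 without cpr-6 RNAi replicate 4. Its 3′ end overlaps that of W07A12.8 on the other strand over 82 bases, a scarce gene with 123 counts over the 8 libraries against 1337 for rhy-1. Whether strand was used in counting is not given, so how reads there were assigned is not known.

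cysl-1 (WBGene00007653; chromosome X, 9952579 to 9954533, minus strand, 1 transcript) encodes a cysteine synthase-like protein that binds EGL-9 and blocks it. Its values were 14.8, 12.0, 16.2 and 15.8 CPM in EV and 17.6, 11.9, 11.4 and 22.5 CPM in cpr-6 RNAi. Of the treated libraries, 2 lay above and 2 lay below all EV libraries. The SD was 1.89 CPM in EV and 5.24 CPM in cpr-6 RNAi, around means of 14.7 and 15.9 CPM. This gave a log2 fold change of 0.10 ± 0.199 (SE; 95% interval -0.39 to 0.46), and -0.114 without cpr-6 RNAi replicate 4.

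**Figure D2:**
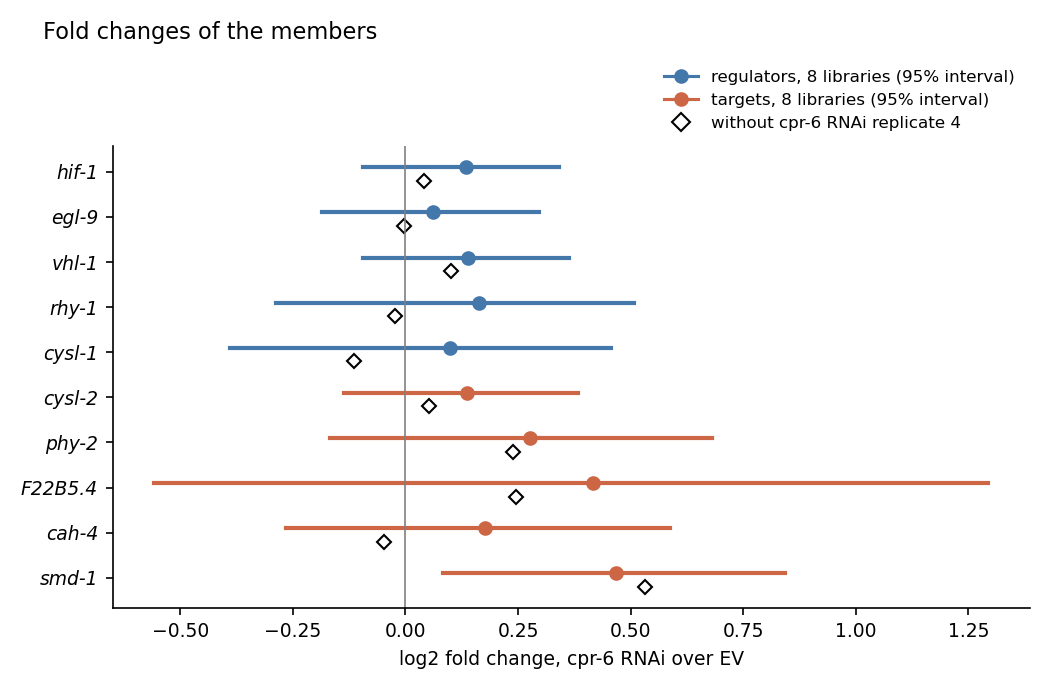
Log2 fold changes of the members (edgeR, dots) with 95% intervals from limma voom (lines), and the values without cpr-6 RNAi replicate 4 (diamonds). All 10 dots lie above 0 and 6 of 10 diamonds do, and only the interval of smd-1 lies wholly above 0.

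Among the targets, cysl-2 (WBGene00010759; chromosome II, 14492826 to 14494514, minus strand, 1 transcript) is the gene most used to report HIF-1 activity in worms. It encodes a cyanoalanine synthase that detoxifies cyanide and sulfide. It measured 31.7, 32.2, 38.8 and 36.4 CPM in EV and 41.3, 33.2, 34.1 and 44.7 CPM in cpr-6 RNAi. Replicates 1 and 4 of cpr-6 RNAi were the highest of the 8 libraries, and the other 2 treated libraries lay inside the EV range. The means (± SD, n = 4) were 34.8 ± 3.40 and 38.4 ± 5.58 CPM, which gave a log2 fold change of 0.14 ± 0.120 (SE; edgeR adjusted p = 0.997). The 95% interval of -0.14 to 0.38 corresponds to 0.910-fold to 1.30-fold. Without cpr-6 RNAi replicate 4 the log2 fold change was 0.05. The 3′ end of cysl-2 overlaps that of vnut-1 on the other strand over 36 bases. vnut-1 had 37.2 ± 3.34 CPM in EV and 35.6 ± 4.30 CPM in cpr-6 RNAi, and in cpr-6 RNAi replicate 4, where cysl-2 was highest, it was lowest (29.9 CPM).

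phy-2 (WBGene00004025; chromosome IV, 12211098 to 12215987, minus strand, 1 transcript) encodes an alpha subunit of the prolyl 4-hydroxylase that matures cuticle collagens. It measured 3.73, 4.52, 4.89 and 4.99 CPM in EV and 4.24, 5.31, 6.59 and 5.92 CPM in cpr-6 RNAi, from 35 to 71 counts per library. In 3 of 4 treated libraries it was above every EV library, and replicate 1 was the exception. The log2 fold change was 0.28 ± 0.203 (SE; 95% interval -0.17 to 0.68; edgeR adjusted p = 0.997), and 0.24 without cpr-6 RNAi replicate 4. The treated mean was higher by 0.20 within replicates 1 and 2 and by 0.33 within replicates 3 and 4, on the log2 scale.

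F22B5.4 (WBGene00009042; chromosome II, 8449701 to 8452739, plus strand, 2 transcripts), an uncharacterised gene known for HIF-1-dependent induction in low oxygen, was the scarcest member with 5 to 14 counts per library. It had 9, 5, 6 and 14 counts in EV and 14, 10, 5 and 12 counts in cpr-6 RNAi. Both groups held libraries at 5 counts and at 14 counts. It passed the low-count filter through 1 EV and 3 cpr-6 RNAi libraries, the smallest number the filter allows. The log2 fold change of 0.42 ± 0.429 (SE) had a 95% interval of -0.56 to 1.29, so that neither a lower level nor a 2.45-fold higher one could be told from no difference at this depth. With 1 library left out it ran from 0.25, without cpr-6 RNAi replicate 4, to 0.68, without cpr-6 RNAi replicate 3.

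cah-4 (WBGene00000282; chromosome X, 13542574 to 13544599, plus strand, 2 transcripts), of the carbonic anhydrase family that interconverts carbon dioxide and bicarbonate, varied most among the well-counted members. It measured 115, 84.7, 158 and 141 CPM in EV and 125, 103, 134 and 202 CPM in cpr-6 RNAi. Replicate 2 was the lowest library of each group, and replicates 3 and 4 were the higher ones in both. The means were 124 ± 31.9 and 141 ± 42.5 CPM (SD, n = 4), with a log2 fold change of 0.18 ± 0.245 (SE; 95% interval -0.27 to 0.59) that became -0.0483 without cpr-6 RNAi replicate 4. In a fit that added the division of replicates 1 and 2 from replicates 3 and 4, which the deposited fold changes follow but no label explains, cah-4 was higher in replicates 3 and 4 by 0.57 ± 0.132 (SE). The unadjusted p was 0.000807 and the edgeR adjusted p was 0.195, so this difference did not pass either. Of all genes 0.0823% passed for this term, and 0 of the 10 members did.

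smd-1 (WBGene00004875; chromosome I, 14048085 to 14051003, minus strand, 3 transcripts) encodes S-adenosylmethionine decarboxylase, which supplies the aminopropyl group for spermidine. It measured 14.4, 13.7, 20.8 and 14.0 CPM in EV and 29.6, 19.2, 19.8 and 18.5 CPM in cpr-6 RNAi. In EV 3 libraries lay near 14 CPM and replicate 3 stood at 20.8, while in cpr-6 RNAi 3 libraries lay near 19 CPM and replicate 1 stood at 29.6. The groups overlapped only because EV replicate 3 was above 3 of the treated libraries. With group means (± SD, n = 4) of 15.7 ± 3.42 and 21.8 ± 5.23 CPM, the log2 fold change was 0.47 ± 0.177 (SE). The unadjusted edgeR p was 0.0185 and the adjusted p was 0.997. The 95% interval in limma voom was 0.08 to 0.84 and the exact two-sided permutation p was 0.114 (n = 4 each). It differed by 0.76 within replicates 1 and 2 and by 0.16 within replicates 3 and 4, and a test of that difference gave an unadjusted edgeR p of 0.0587 and an adjusted p of 0.997. smd-1 did not share the high value of cpr-6 RNAi replicate 4, and without that library its log2 fold change was 0.53 (edgeR unadjusted p = 0.0149, adjusted p = 0.93). It was 0.28 without cpr-6 RNAi replicate 1, its highest library.

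Regulators and targets were then followed library by library, as log2 CPM minus each gene's mean over the 8 libraries. In cpr-6 RNAi replicate 4 all 10 members were above their own mean, the 5 regulators by 0.37 on average and the 5 targets by 0.37. That library was the highest of the 8 for 7 members, all but vhl-1, phy-2 and smd-1. It was also the highest for 29.9% of all tested genes and the lowest for 28.8%, so an extreme value there was common. It was the lowest library for 0 members. In cpr-6 RNAi replicate 1 the targets averaged 0.23 and the regulators 0.11, and 7 of 10 members were above their mean. In cpr-6 RNAi replicate 2 the regulators averaged -0.22 with 0 of 5 above their mean, while the targets averaged -0.02. EV replicate 2 was low for both, at -0.14 for regulators and -0.38 for targets. The treated group thus held both the lowest and the highest library for the regulators.

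**Figure D3:**
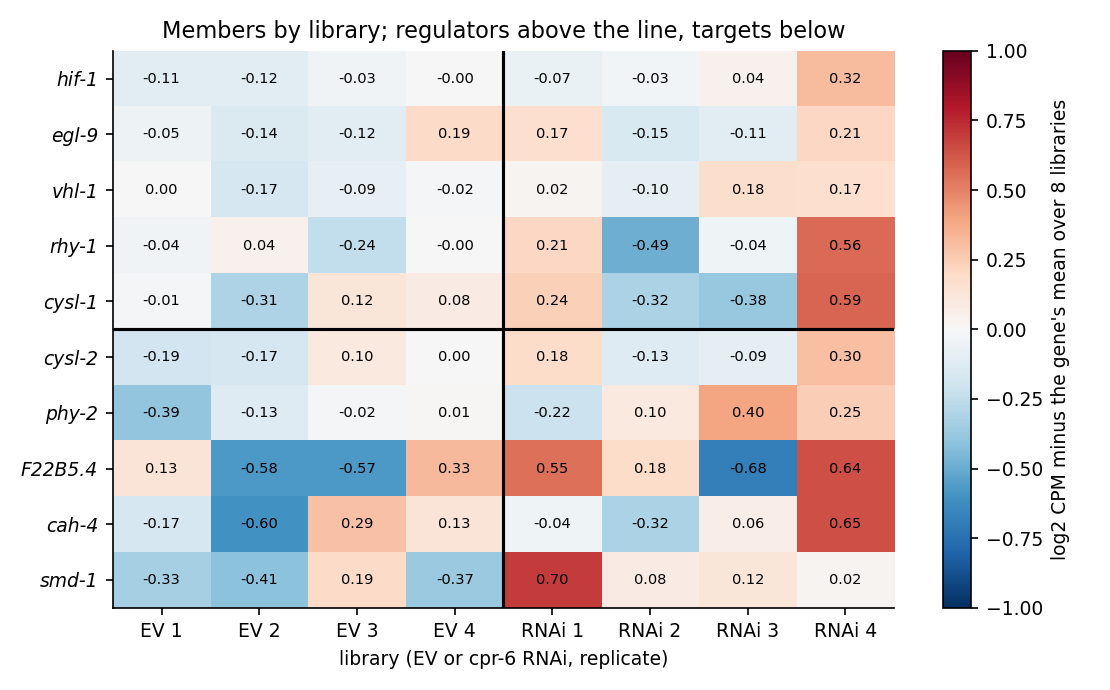
Deviation of each member (rows) in each library (columns) from the gene's own mean over 8 libraries, in log2 CPM; red is above and blue below the mean. The last column, cpr-6 RNAi replicate 4, is above the mean in all 10 rows, and the other treated libraries hold both signs.

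How far members varied together was measured against cysl-2 over the 8 libraries, in log2 CPM. cysl-1 was the most like it, with Pearson's r = 0.872 (exact permutation p = 0.00471, adjusted over 9 relations 0.0424) and Spearman's rho = 0.762 (exact permutation p = 0.0368, adjusted 0.165). cysl-1 was on the same side of its mean as cysl-2 in 8 of 8 libraries. Without cpr-6 RNAi replicates 1 and 4, the libraries farthest from the median of cysl-2, r was 0.606 over 6 libraries (exact permutation p = 0.218), so the test rested on those libraries. Leaving them out also narrows the range of cysl-2 and the number of libraries. With only cpr-6 RNAi replicate 4 left out r was 0.755, the lowest value with 1 library left out. After centring replicates 1 and 2 and replicates 3 and 4 separately, r was 0.861 (adjusted permutation p = 0.0511). cah-4 followed with r = 0.806 (exact permutation p = 0.0141, adjusted 0.0634) and rho = 0.786 (exact permutation p = 0.0279, adjusted 0.165). Without the farthest libraries its r was 0.83 over 6 libraries (exact permutation p = 0.0389, not adjusted).

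The other 7 relations had adjusted permutation p of 0.101 or more. r was 0.732 for egl-9, 0.694 for hif-1, 0.649 for rhy-1, 0.577 for smd-1, 0.526 for F22B5.4, 0.464 for vhl-1 and 0.262 for phy-2, and rho was 0.595, 0.571, 0.452, 0.524, 0.619, 0.452 and 0.333 in that order. Without the farthest libraries these values of r were 0.313, 0.529, -0.174, 0.475, -0.151, 0.0199 and 0.316. For hif-1, r was 0.247 without cpr-6 RNAi replicate 4 alone, where hif-1 was highest. Many other genes also had high r with cysl-2 in these libraries. Across all tested genes the median r was -0.0118, the upper quartile was 0.435 and 9.63% had r above 0.7. All members but phy-2 lay above that quartile with the 8 libraries. cysl-1 ranked 175th of 10931 genes and cah-4 450th. The 5 genes most like cysl-2 over the 8 libraries were H03E18.1 (r = 0.989), the nidogen gene nid-1 (0.981), the monocarboxylate transporter family gene mct-3 (0.979), the sodium-calcium exchanger gene ncx-1 (0.970) and the secretin receptor-like gene seb-3 (0.968). None of them was a member.

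**Figure D4:**
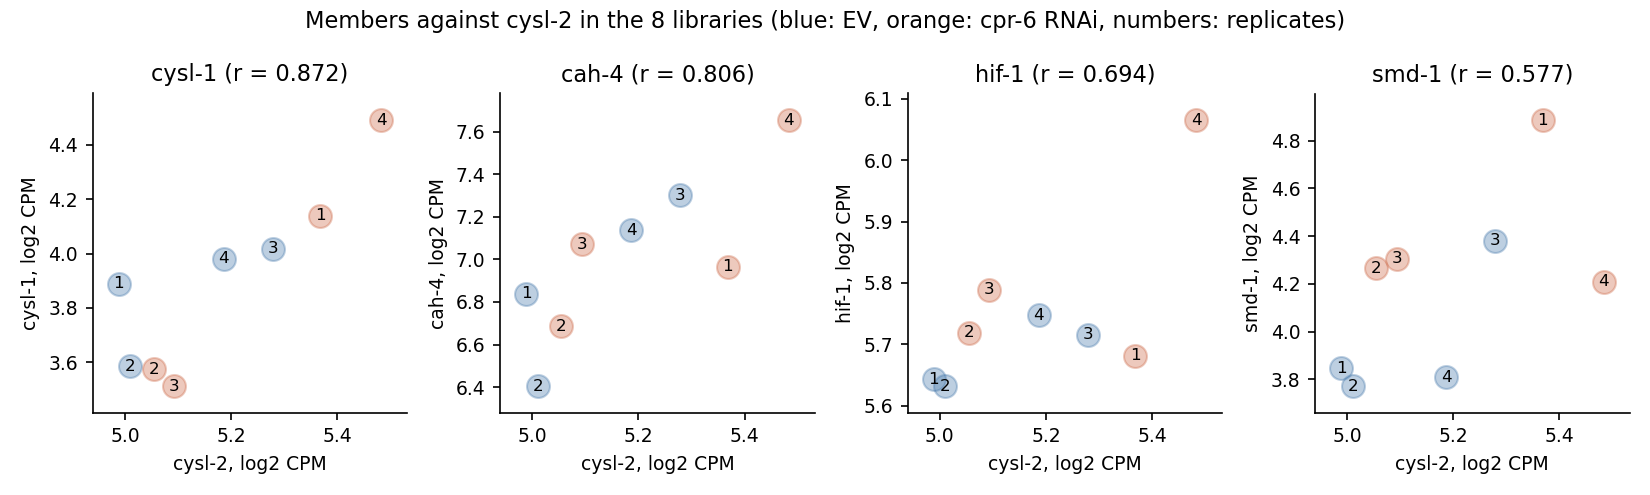
Levels of 4 members against that of cysl-2 in the 8 libraries, both as log2 CPM; blue is EV, orange is cpr-6 RNAi and digits are replicates. cysl-1 and cah-4 climb with cysl-2 (r = 0.872 and 0.806), and for hif-1 (r = 0.694) the high point is cpr-6 RNAi replicate 4.

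Other genes of the pathway were read from fixed lists, and 0 of them passed edgeR's test (adjusted p of 0.997 or more). The rest of the oxygen-sensing machinery lay around 0. Of 6 genes tested, 3 were above and 3 below 0, with a median log2 fold change of 0.02. They include aha-1, which encodes the partner of HIF-1 (0.06), and the ubiquitin ligase genes cul-2 (-0.15, and -0.0442 without cpr-6 RNAi replicate 4), elb-1 (0.05), elc-1 (0.18) and rbx-1 (-0.000901), with the WD repeat gene swan-1 at -0.08. aha-1 and rbx-1 fall outside the rule for named genes and were added to complete the list. None of the 6 had an unadjusted edgeR p under 0.05. elc-1 was scarce, with 5 to 16 counts per library. Like F22B5.4, it passed the low-count filter through 1 EV and 3 cpr-6 RNAi libraries, which limits what its value can show.

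Other genes that HIF-1 is known to induce had a median log2 fold change of 0.27 over 8 tested genes, with 7 above 0 and 2 at unadjusted p under 0.05. Over all tested genes 50.2% lay above 0 and 3.85% had such a p. Of the 9 genes listed, smf-3 was too scarce to test, with 1 to 7 counts per library. Its means were 0.438 CPM in EV and 0.210 CPM in cpr-6 RNAi. The gluconeogenic gene pck-1 measured 50.0, 53.3, 60.3 and 63.7 CPM in EV and 72.7, 62.3, 62.9 and 86.8 CPM in cpr-6 RNAi, a log2 fold change of 0.32 ± 0.119 (SE; edgeR unadjusted p = 0.0165, adjusted p = 0.997). The sulfide:quinone oxidoreductase gene sqrd-1, which starts the mitochondrial oxidation of hydrogen sulfide, measured 7.99, 8.52, 8.57 and 7.73 CPM in EV and 10.9, 9.91, 9.37 and 12.3 CPM in cpr-6 RNAi. Its groups did not overlap, and the log2 fold change was 0.37 ± 0.149 (SE; edgeR unadjusted p = 0.0251, adjusted p = 0.997). Values for the cytochrome P450 gene cyp-36A1 and for R08E5.3 were 0.21 and 0.51. The nuclear receptor gene nhr-57, outside the rule for named genes and added after its values were seen as a further common reporter, stood at 0.49 and at 0.16 without cpr-6 RNAi replicate 4. The 1 gene below 0, also added afterwards, was the flavin monooxygenase gene fmo-2 at -0.48. It measured 68.1 CPM in EV replicate 4 and 14.9 to 33.5 CPM in the other libraries. Leaving out cpr-6 RNAi replicate 4 gave the list a median of 0.18, with 7 of 8 above 0. In that fit 49.4% of all tested genes lay above 0, and 577 of 10932 had an unadjusted edgeR p under 0.05. pck-1 then stood at 0.21 (edgeR unadjusted p = 0.0432, adjusted p = 0.935), sqrd-1 at 0.29 (edgeR unadjusted p = 0.0638, adjusted p = 0.94) and R08E5.3 at 0.31, so that of the 2 genes only pck-1 kept an unadjusted p under 0.05. The ferritin genes ftn-1 and ftn-2, which HIF-1 is known to lower, had values of the same sign, 0.21 and 0.30 (for ftn-2, edgeR unadjusted p = 0.0106 and adjusted p = 0.997). Without cpr-6 RNAi replicate 4 they stood at 0.27 and 0.25 (for ftn-2, edgeR unadjusted p = 0.0168 and adjusted p = 0.93).

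Genes of sulfide and cysteine metabolism, the branch in which cysl-1 and cysl-2 act, had a median of 0.18 over 11 tested genes. Of these, 9 lay above 0, where 50.2% of all tested genes did. sqrd-1 and ethe-1 are also on the list of other genes that HIF-1 induces, so these lists are not separate. Of the 14 names listed, 2 were too scarce to test and sqrd-2 was not matched. The cystathionine gamma-lyase gene cth-2 measured 195, 210, 211 and 195 CPM in EV and 272, 209, 244 and 283 CPM in cpr-6 RNAi. Of the treated libraries, 3 lay above all EV libraries and replicate 2 lay among them. cth-2 had a log2 fold change of 0.31 ± 0.0959 (SE; edgeR unadjusted p = 0.00491, adjusted p = 0.997), and 0.25 without cpr-6 RNAi replicate 4 (edgeR unadjusted p = 0.00551, adjusted p = 0.761). Values were 0.18 for the sulfite oxidase gene suox-1 and -0.62 for the scarce cystathionine beta-synthase gene cbs-2. Without cpr-6 RNAi replicate 4 suox-1 stood at 0.22 (edgeR unadjusted p = 0.0446, adjusted p = 0.935) and cbs-2 at -0.55. The list's median was then 0.12, with 8 of 11 above 0, beside 49.4% of all tested genes.

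Partners and relatives of the targets gave mixed values. The other prolyl 4-hydroxylase subunit genes dpy-18, phy-3 and pdi-2 had log2 fold changes of -0.04, 0.09 and 0.06, against 0.28 for phy-2. When cpr-6 RNAi replicate 4 was left out, 0 of these 3 lay above 0, at -0.0742, -0.0741 and -0.0464 in the same order. Of all tested genes 49.4% then lay above 0. All 4 other carbonic anhydrase genes tested lay above 0, where 50.2% of all tested genes did, with a median of 0.39. Counts per library were low for cah-2 (6 to 18), cah-6 (18 to 52) and cah-5 (28 to 60), against 292 to 493 for cah-3. cah-2 reached the cut-off of the low-count filter in 2 EV and 4 cpr-6 RNAi libraries, which limits what its value can show. cah-1 was too scarce to test, with 0 to 2 counts per library and means of 0.0916 CPM in EV and 0 CPM in cpr-6 RNAi. The filter thus bears on the count of genes above 0 and on the median. cah-6 measured 1.92 to 2.17 CPM in EV and 2.50 to 4.82 CPM in cpr-6 RNAi, without overlap of the groups. Its log2 fold change was 0.80 ± 0.264 (SE; edgeR unadjusted p = 0.00852, adjusted p = 0.997), and 0.74 without cpr-6 RNAi replicate 4 (edgeR unadjusted p = 0.0165, adjusted p = 0.93). cah-2, cah-3 and cah-5 had values of 0.53, 0.13 and 0.24, the last falling to 0.15 without that library. Genes around smd-1 in polyamine and S-adenosylmethionine synthesis had a median of 0.03 over 6 genes, with odc-1 at 0.04, spds-1 at 0.25, sams-1 at 0.24 and sams-4 at -0.02, against 0.47 for smd-1. Most of these values depended on cpr-6 RNAi replicate 4. Without it odc-1 stood at -0.0275, spds-1 at 0.12, sams-1 at 0.0159 and sams-4 at 0.00299, with a list median of 0.00946.

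Glycolytic genes, which HIF controls in mammals, had a median log2 fold change of 0.07 over 18 tested genes, with 15 above 0 and 2 at unadjusted p under 0.05, beside the same 50.2% and 3.85% over all tested genes. The 2 were the glyceraldehyde-3-phosphate dehydrogenase genes gpd-3 (520 ± 70.4 and 623 ± 54.9 CPM, log2 fold change 0.26) and gpd-2 (141 ± 20.9 and 171 ± 27.8 CPM, 0.28). They are near-identical copies, so the division of reads between them is uncertain. Neither kept an unadjusted p under 0.05 without cpr-6 RNAi replicate 4, when gpd-3 stood at 0.22 (edgeR unadjusted p = 0.0517, adjusted p = 0.935) and gpd-2 at 0.16 (edgeR unadjusted p = 0.133, adjusted p = 0.963). The list then had a median of 0.08, with 16 of 18 above 0, beside 49.4% of all tested genes. Its 1 gene under 0.05 was then gpd-4 (0.16; edgeR unadjusted p = 0.0379, adjusted p = 0.935), named here after its values were seen. In that fit 577 of the 10932 tested genes had an unadjusted edgeR p under 0.05. With all libraries aldo-2 and enol-1 had values of 0.12 and 0.08.

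**Figure D5:**
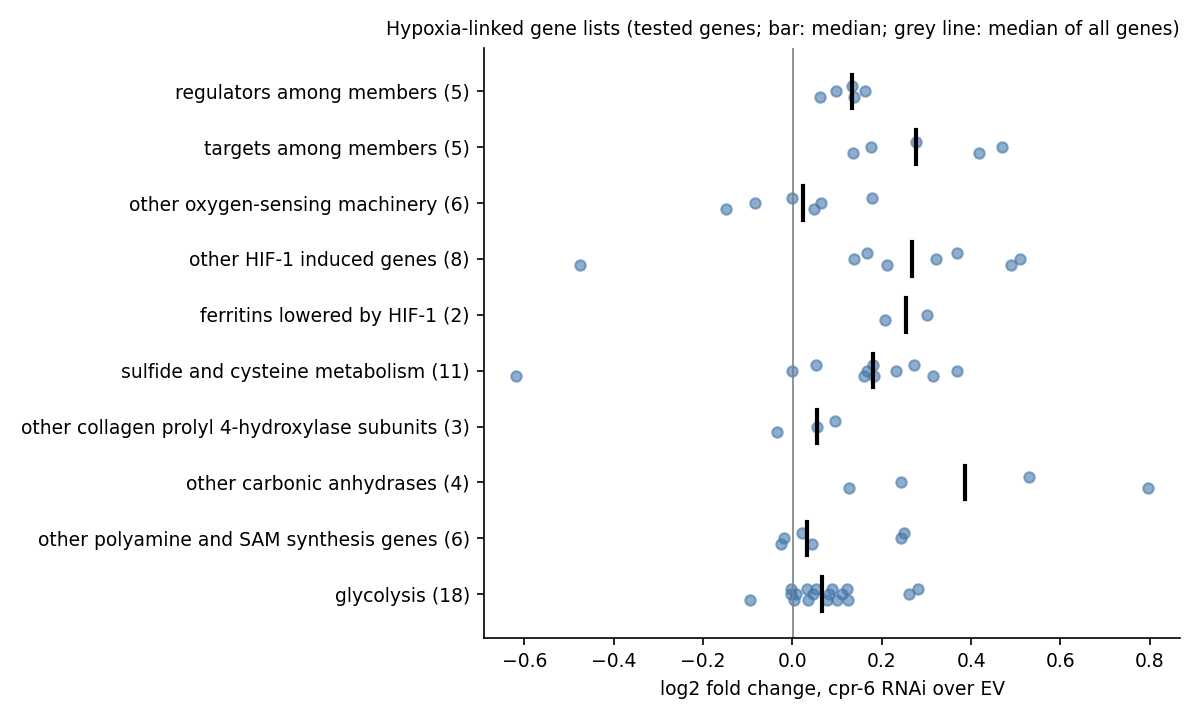
Log2 fold changes of the tested genes in each list (dots) with list medians (black bars); numbers in brackets count genes and the grey line is the median of all tested genes. sqrd-1 and ethe-1 are drawn in both lists that hold them. Medians run from 0.02 for the other oxygen-sensing genes to 0.39 for the other carbonic anhydrases, and no gene shown passed the test.

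In the authors' deposited table the members' log2 fold changes were 0.11 for hif-1, 0.04 for egl-9, 0.12 for vhl-1, 0.14 for rhy-1, 0.08 for cysl-1, 0.12 for cysl-2, 0.26 for phy-2, 0.41 for F22B5.4, 0.16 for cah-4 and 0.45 for smd-1. The authors' deposited table gives smd-1 an unadjusted p of 0.0199, the only one under 0.05 among the members, where 3.35% of its genes have one. The authors' deposited table gives all 10 members an adjusted p of 1.00, where 0.053% of genes in the authors' deposited table have one under 0.05.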

How the data were processed

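The authors deposited raw counts per gene for the 8 libraries, with normalized counts, log2 fold changes and p-values of their own comparison. The headers of the normalized counts include the term noBatch, and no header says which libraries formed a batch. A score in the table, the authors' test statistic per the file headers, was not used. The submitters' processing notes name the genome build WBcel235 and the tools DESeq2 1.30.1, HTSeq 0.12.4, TopHat2 2.1.1 and cutadapt 2.10. What each tool did, and whether strand or molecular identifiers were used, is not given in the sources used here, so amplified copies may enter the counts. The deposited log2 fold changes came within 0.001 of a DESeq2 model holding treatment and the division of replicates 1 and 2 from 3 and 4 for 100% of 13217 genes, and of treatment alone for 19%.

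The tests used edgeR 4.0.16 in R 4.3.3 (TMM, a minimum count of 10 in filterByExpr, robust quasi-likelihood test of treatment, Benjamini-Hochberg adjustment over 10932 genes, threshold 0.05, two-sided). Intervals are from limma 3.58.1 voom. Exact permutation tests, correlations and differences within replicate numbers used log2 CPM (prior count 2). The gene test was checked on simulated counts. Members, lists and tests were chosen with earlier results of these data known. The rule for named genes took all members, cpr-6, up to 4 genes with the smallest p per list and the 5 genes most like cysl-2. Alternatives were RLE scaling, other low-count filters, voom, DESeq2 1.42.0, a block for the replicate number, the division of replicates and each library left out. Gene positions are from the deposited table, and transcripts and overlaps from Ensembl release 115 of the same build, which held 46817 of the 46904 identifiers. The series text states 4 biological repeats, and no label ties libraries to separate cultures, so the p-values reflect only how much these libraries differ among themselves.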

Additional observations from a re-analysis of the deposited data

Results flagged for a closer look

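Over 22 groups of 4 libraries (11 genes including cpr-6, each in EV and in cpr-6 RNAi), 2 values stood far from the other libraries of their group, where chance flags about 1 in 20 groups. Both were of smd-1. EV replicate 3 stood at 20.8 CPM, with a gap to the next library of 0.898 of the group's range. cpr-6 RNAi replicate 1 stood at 29.6 CPM, with a gap of 0.886 of the range.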

How the results depend on the processing

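No member passed the test under any of the 17 alternatives, and neither did any gene of the other lists. F22B5.4 was not tested with the stricter low-count filter and had no adjusted p in DESeq2, so there only 9 members could pass. Of 169 fold changes of members under the alternatives, 164 kept their sign. Without cpr-6 RNAi replicate 4 those of egl-9, rhy-1, cysl-1 and cah-4 became -0.00346, -0.0231, -0.114 and -0.0483, and within replicates 1 and 2 alone that of rhy-1 became -0.102. Over fits with 1 library left out, the highest values of these 4 genes were 0.135, 0.319, 0.229 and 0.312, and the range for smd-1 was 0.28 to 0.64, with a smallest edgeR adjusted p of 0.764. In replicates 1 and 2 alone smd-1 had a log2 fold change of 0.80 and an edgeR adjusted p of 0.0596. Over all genes, 1 gene passed in the main test, 28 with no low-count filter, 5 in DESeq2, 121 in replicates 1 and 2 alone, and 1 to 3 with a library left out. The replicate number as a block gave 2 genes. Libraries with the same number deviated together only in part (correlations -0.031, 0.121, 0.0187 and 0.249), so the numbers were not taken to pair them. With RLE scaling or with the divided replicates centred, 0 relations with cysl-2 passed in place of 1. cysl-1 then had r = 0.861 under both (adjusted permutation p = 0.0641 and 0.0511), and phy-2 had r = -0.0764 after centring. The counts of F22B5.4 limit what can be said of it.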
